A study of Mus musculus with 6 samples.

Results

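Zinc transporters, the zinc-sensing transcription factor gene Mtf1 and metallothionein genes were followed in cultured mouse fibroblast-like synoviocytes, which line the joint cavity. The set was a list of 10 genes, and a gene was measured where a probe set carried its symbol and no other in the platform annotation. This gave 9 of the 10 genes, out of 22180 genes measured in the series. The gene not measured this way was Slc30a1, which encodes a zinc exporter of the plasma membrane. Its 2 probe sets also list another gene, so it is given no value here. Each of the 9 genes had a single probe set of its own.

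Cells infected with Ad-Epas1, an adenovirus that carries Epas1, were measured on 3 arrays, and cells infected with an adenovirus without an insert (Mock) on 3 arrays. Epas1 is the gene of HIF-2alpha, a transcription factor that accumulates at low oxygen. All cells were C57BL6 synoviocytes of the knee between passages 4 and 8, and both groups met virus, at a multiplicity of infection of 800 for 2 h, before 24 h of culture. The labels speak of biological replicates but name neither animals nor cultures, so the spread behind each p-value is that of these samples and may be technical.

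Zinc enters the cytosol through ZIP proteins (Slc39a genes) and leaves it, for the outside or for organelles, through ZnT proteins (Slc30a genes). Metallothioneins are small cysteine-rich proteins that bind zinc, copper and cadmium. MTF1 is a zinc finger protein that senses free zinc, binds metal response elements and switches on metallothionein genes and Slc30a1. In mouse chondrocytes, zinc import by ZIP8 (Slc39a8) is known to activate MTF1 and, through it, matrix-degrading protease genes.

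The promoters of Mt2 and Mt1, the classical targets of MTF1, and of Slc30a4, a gene of the set that fell, are shown because they carry several matches to the core of the metal response element. The core was searched as TGCACNC or TGCGCNC on both strands, and its matches are in capitals. Each sequence holds the 250 bases before the transcript start that RefSeq annotates, in build GRCm38.p6, 5′ to 3′ on the strand of the gene.
Mt2, chr8:94172368-94172617, plus strand: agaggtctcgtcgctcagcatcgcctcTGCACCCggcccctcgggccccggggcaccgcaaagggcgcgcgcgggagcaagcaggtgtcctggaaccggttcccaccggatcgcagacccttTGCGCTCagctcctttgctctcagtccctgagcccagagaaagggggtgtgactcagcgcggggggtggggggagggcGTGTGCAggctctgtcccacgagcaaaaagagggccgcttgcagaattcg
Mt1, chr8:94178839-94179088, plus strand: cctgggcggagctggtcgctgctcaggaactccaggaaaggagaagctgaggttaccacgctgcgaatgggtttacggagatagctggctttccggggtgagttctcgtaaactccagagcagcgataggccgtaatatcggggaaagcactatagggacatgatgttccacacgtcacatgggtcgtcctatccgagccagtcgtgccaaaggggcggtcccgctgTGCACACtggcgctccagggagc
Slc30a4, chr2:122702664-122702913, minus strand: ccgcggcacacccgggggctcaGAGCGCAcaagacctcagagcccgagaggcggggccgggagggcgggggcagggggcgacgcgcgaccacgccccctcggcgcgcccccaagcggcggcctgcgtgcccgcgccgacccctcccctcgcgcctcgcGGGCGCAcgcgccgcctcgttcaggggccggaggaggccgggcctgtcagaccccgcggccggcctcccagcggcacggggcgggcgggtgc
The start of Mt1 that RefSeq annotates is followed by a stretch of 30 bases with a further pair of matches. Whether transcription in these cells begins at this start was not tested, so the stretch may lie before the start in use.
Mt1 site, chr8:94179091-94179120, plus strand: TGCACTCcgcccgaaaagTGCGCTCggctc

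Over the whole window of 250 bases before to 50 after the start, Mt2 held 4 matches to the metal response element core, Mt1 held 3, Slc30a4 held 3 and Slc30a1 held 2. Among 32851 RefSeq promoter windows of the same length, 25.7% held at least 1 match, 1.97% at least 3 and 0.517% at least 4. Windows were found for 8 of the 10 genes. Slc39a8 has 2 windows, of which 1 held a single match, and no match lay in the windows of Mtf1, Slc39a1 and Slc39a10. The core of the hypoxia response element, searched as ACGTG or GCGTG on both strands, was in 43.8% of all windows. It matched 3 times in the window of Slc30a4, 3 times in 1 window of Slc39a8, 2 times each in those of Mt1 and Mt2 and 1 time each in those of Slc30a1 and Slc39a1, and not in those of Mtf1 and Slc39a10. In Mt2 and Slc30a4 a match to the hypoxia core overlapped a match to the metal core. The letters TATAAA of a TATA box were in none of these windows, those of Mt1 and Mt2 included, on the strand of the gene. The counts hold for windows at the annotated starts, and matches beyond their ends were not searched. A match describes letters in a window and shows no binding.

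Values are log2 expression values made by RMA. The delivered gene Epas1 stood at 13.14, 13.15 and 13.11 on Ad-Epas1 replicates 1, 2 and 3, against 8.67, 8.71 and 8.51 on Mock replicates 1, 2 and 3, so the groups match their labels. Fibroblast markers were high in both groups, with a median over 10 markers of 11.74 to 12.28 on the Ad-Epas1 arrays and 12.18 to 12.26 on the Mock arrays. Of these 10 markers, Pdpn (0.73, limma, adjusted p = 0.0041) and Prg4 (0.55, adjusted p = 0.028) rose, Cdh11 fell (-1.26, adjusted p = 0.011) and 7 did not pass. Thy1 (CD90), the marker used to identify the cells, was among the 7 and stood at 10.40, 10.60 and 10.98 on the Ad-Epas1 arrays, against 11.17, 11.06 and 11.06 on the Mock arrays. The labels state that cells positive for the macrophage marker CD14 were rare, yet macrophage transcripts were plentiful on all arrays but Ad-Epas1 replicate 3. The log2 levels of 12 macrophage markers summed to 130.6, 128.6 and 88.6 on Ad-Epas1 replicates 1, 2 and 3, against 134.5, 131.2 and 131.5 on the Mock arrays. Their median on Ad-Epas1 replicate 3 lay at -3.60 from the Mock mean. On that array Ptprc (5.76), Adgre1 (5.89), Itgam (6.10) and C1qc (6.46) lay under 6.62, and the remaining macrophage markers lay above it. This is the level under which 95% of 1394 olfactory and vomeronasal receptor genes lay. Over all arrays, 11 of the 12 differences were negative. C1qa (-2.05, limma, adjusted p = 0.0089), C1qc (-2.31, adjusted p = 0.049) and Cx3cr1 (-1.08, adjusted p = 0.0022) fell. Each of these was lower on every Ad-Epas1 array than on any Mock array, so they also differed outside Ad-Epas1 replicate 3. C1qa stood at 9.19, 9.15 and 8.00 on the Ad-Epas1 arrays and at 11.01, 10.67 and 10.80 on the Mock arrays. With Ad-Epas1 replicate 3 left out, 4 of the 12 fell and 1 rose, where 24.3% of all genes passed, 14% falling and 10.3% rising. In that fit the differences of Cd14 (1.48), Adgre1 (0.61), Fcgr1 (0.47) and Itgam (0.33) were positive and the rest negative. Over all arrays, Cd14 was the marker with a positive difference, at 11.92, 11.40 and 8.62 on the Ad-Epas1 arrays and at 10.42, 9.99 and 10.14 on the Mock arrays. In RNA of a whole culture, fewer cells of a type and less RNA per cell cannot be told apart. The results on the zinc genes and the calls in other lists are therefore also given with Ad-Epas1 replicate 3 left out.

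Of the 9 measured zinc genes, Mtf1 rose, Slc30a4 fell and 7 did not pass the test (limma, Benjamini-Hochberg adjusted p under 0.05 over all genes). Among all 22180 genes 16.3% passed, 6.57% rising (1458) and 9.75% falling (2162), so the zinc genes' count is near this background. Another quantile step between arrays turned the split of all genes to 1913 rising and 1731 falling. Their log2 fold changes ran from -0.65 to 0.55, with a median of 0.20, beside 0.05 over all genes. Every Ad-Epas1 array was above every Mock array for 5 of the 9 genes and below for 2, and the groups overlapped for Slc39a8 and Slc39a10. Over all genes the groups did not overlap for 39.7%, with Ad-Epas1 higher for 21.3% and lower for 18.4%.

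**Figure D1:**
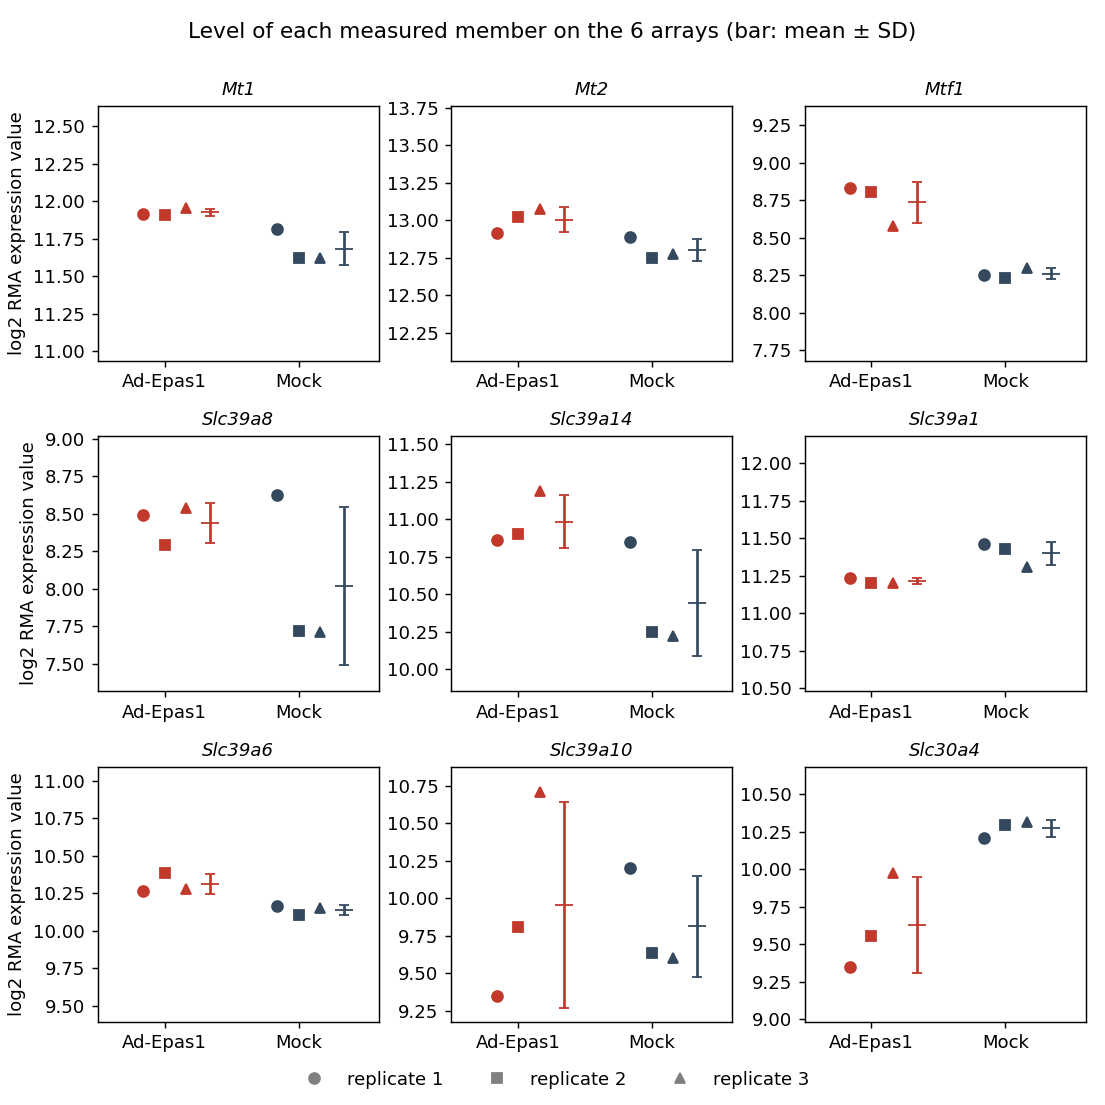
Log2 expression value (vertical axis, the same span in each panel) of the 9 measured zinc genes on 3 Ad-Epas1 and 3 Mock arrays. Symbols mark the replicate number, and the horizontal mark with its bar is the mean ± SD of the 3 arrays. The groups overlap for Slc39a8 and Slc39a10 and are apart for the other genes, of which Mtf1 and Slc30a4 passed the test. Mock replicate 1 is above every Ad-Epas1 array for Slc39a8 and just below the lowest of them for Slc39a14.

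Mtf1, the gene of the zinc sensor, rose 1.39-fold on the probe set that lists it alone. It stood at 8.83, 8.80 and 8.58 on Ad-Epas1 replicates 1, 2 and 3, against 8.25, 8.23 and 8.30 on Mock replicates 1, 2 and 3. All Ad-Epas1 arrays were above all Mock arrays, and Ad-Epas1 replicate 3 was the lowest of its group. The means were 8.74 ± 0.14 in Ad-Epas1 and 8.26 ± 0.04 in Mock (SD, n = 3 each), and the log2 fold change was 0.48 (SE 0.09, limma, adjusted p = 0.014). Leaving out Ad-Epas1 replicate 3, the array poor in macrophage transcripts, gave 0.56 (adjusted p = 0.0024). The call ended without Ad-Epas1 replicate 2 (0.45, adjusted p = 0.060), Mock replicate 2 (0.46, adjusted p = 0.071) or Mock replicate 3 (0.50, adjusted p = 0.059). A second probe set, which lists Mtf1 together with 1110065P20Rik and was not tested, ran the other way on most arrays. It stood at 8.88, 8.91 and 9.19 on the Ad-Epas1 arrays, against 9.32, 9.33 and 9.17 on the Mock arrays, and which of the genes it reads cannot be told apart.

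The metallothionein genes, which MTF1 switches on, differed little between the groups. Zinc itself was not measured. Mt1 stood at 11.91, 11.91 and 11.95 on the Ad-Epas1 arrays, against 11.81, 11.62 and 11.62 on the Mock arrays. The groups did not overlap, and Mock replicate 1 was the highest Mock array. The log2 fold change of Mt1 was 0.24 (SE 0.08, 95% interval 0.06 to 0.43, limma, adjusted p = 0.080), which did not pass. Mt2 stood at 12.91, 13.02 and 13.08 on the Ad-Epas1 arrays, against 12.88, 12.75 and 12.77 on the Mock arrays. Its difference of 0.20 (SE 0.08, 95% interval 0.02 to 0.38, limma, adjusted p = 0.12) did not pass either, and Mock replicate 1 lay just under Ad-Epas1 replicate 1. The upper ends of both intervals stay below a log2 difference of 0.5. Without Mock replicate 1, Mt1 rose by 0.31 (adjusted p = 0.046), and Mt2 was at 0.24 (adjusted p = 0.12). Without Mock replicate 2, Mt1 was at 0.21 (adjusted p = 0.24) and Mt2 at 0.17 (0.31). Without Mock replicate 3 they were at 0.21 (0.24) and 0.19 (0.31). Leaving out Ad-Epas1 replicate 3 gave 0.23 for Mt1 and 0.16 for Mt2. Mt1 and Mt2 lie next to each other on chromosome 8 with 0 annotated genes between them. Their products are similar in sequence, and no check was made of whether probes of one could bind transcripts of the other.

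Slc39a8 (ZIP8) and Slc39a14 (ZIP14) encode closely related importers of zinc, iron, manganese and cadmium, and both are known to respond to inflammatory signals. Slc39a8 stood at 8.49, 8.29 and 8.54 on the Ad-Epas1 arrays, against 8.62, 7.72 and 7.71 on the Mock arrays. Mock replicate 1 was thus above every Ad-Epas1 array, while the other Mock arrays were below all of them. The log2 fold change was 0.42 with an SE of 0.25 and a 95% interval from -0.17 to 1.01 (limma, adjusted p = 0.28), which did not pass. Slc39a14 stood at 10.86, 10.90 and 11.19 on the Ad-Epas1 arrays, against 10.85, 10.25 and 10.22 on the Mock arrays. The groups did not overlap, by a margin as small as the gap between Ad-Epas1 replicate 1 and Mock replicate 1. The log2 fold change was 0.55 (SE 0.19, 95% interval 0.10 to 0.99, limma, adjusted p = 0.095), which did not pass. The array poor in macrophage transcripts had the highest Ad-Epas1 value of both transporter genes.

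Both importers turned on Mock replicate 1. Without it, Slc39a8 rose by 0.72 (limma, adjusted p = 0.012) and Slc39a14 by 0.75 (adjusted p = 0.018). In that fit 4 of the 9 zinc genes passed, all upward (Mtf1, Mt1, Slc39a8 and Slc39a14), where 12.6% of all genes passed and 4.75% rose, and the fall of Slc30a4 did not pass. Leaving out Ad-Epas1 replicate 3 as well, the same 4 genes rose and Slc30a4 fell, where 27.1% of all genes passed, 11.8% rising and 15.2% falling. With Ad-Epas1 replicate 3 alone left out, the differences were 0.37 for Slc39a8 (adjusted p = 0.39) and 0.44 for Slc39a14 (adjusted p = 0.15). Without Mock replicate 2, Slc39a8 was at 0.27 (adjusted p = 0.57) and Slc39a14 at 0.45 (0.26). Without Mock replicate 3 they were at 0.27 (0.59) and 0.44 (0.27). In these fits 0 of the 9 zinc genes passed, where 1187 and 1181 of 22180 genes passed. Mock replicate 1 was singled out by the values of these same genes, so the calls without it are a description only. Why Mock replicate 1 stands apart was not tested.

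**Figure D2:**
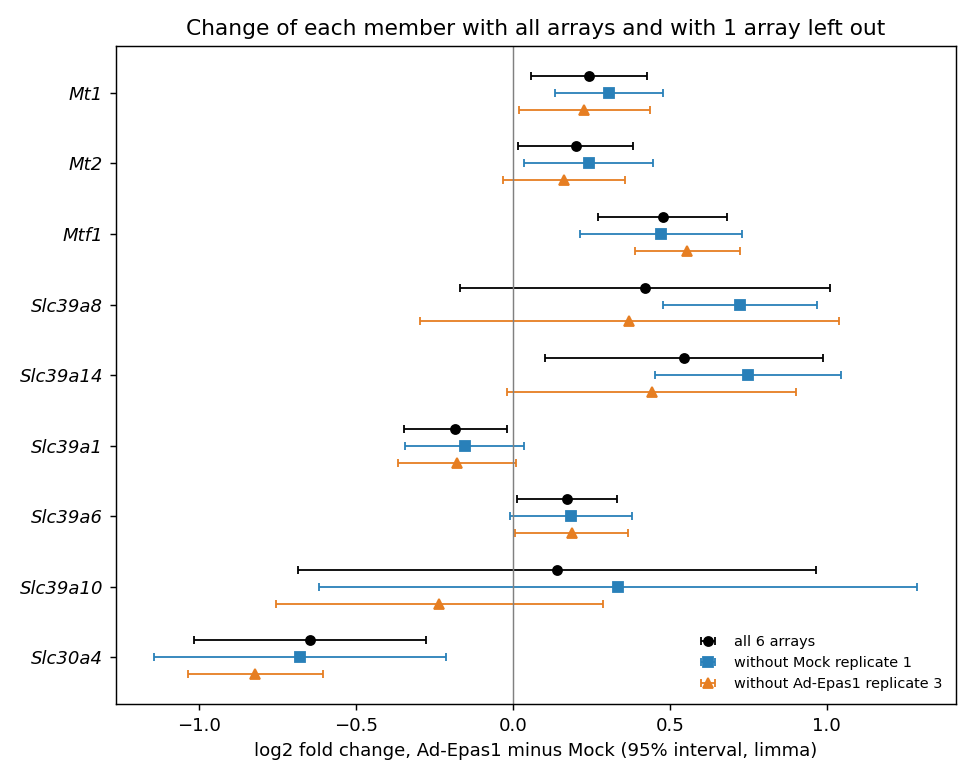
Log2 fold change (Ad-Epas1 minus Mock, horizontal axis) with its 95% interval from limma for the 9 measured zinc genes, with all 6 arrays (circles), without Mock replicate 1 (squares) and without Ad-Epas1 replicate 3 (triangles). Slc39a8 is at 0.42 with all arrays and at 0.72 without Mock replicate 1, and Slc39a10 is at 0.14 with all arrays and at -0.23 without Ad-Epas1 replicate 3.

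The importer genes Slc39a1, Slc39a6 and Slc39a10 encode ZIP1, ZIP6 and ZIP10, and ZIP6 and ZIP10 form a complex with each other. Slc39a1 stood at 11.24, 11.20 and 11.20 on the Ad-Epas1 arrays, against 11.46, 11.43 and 11.31 on the Mock arrays. All Ad-Epas1 arrays were lower, yet the difference of -0.18 (SE 0.07, limma, adjusted p = 0.12) did not pass. Slc39a6 stood at 10.27, 10.39 and 10.28 on the Ad-Epas1 arrays, against 10.17, 10.10 and 10.15 on the Mock arrays, with a difference of 0.17 (SE 0.07, limma, adjusted p = 0.13) that did not pass. The sizes were small for both, at 1.14-fold lower for Slc39a1 and 1.13-fold higher for Slc39a6. With Ad-Epas1 replicate 3 left out they were -0.18 for Slc39a1 and 0.19 for Slc39a6 on the log2 scale, and neither passed.

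Slc39a10, which MTF1 is known to repress in the mouse, was the most variable of the set. It stood at 9.35, 9.81 and 10.71 on Ad-Epas1 replicates 1, 2 and 3, against 10.20, 9.64 and 9.60 on Mock replicates 1, 2 and 3. The Ad-Epas1 group held both the lowest and the highest array. The SD was 0.69 in Ad-Epas1 and 0.34 in Mock, and the difference was 0.14 (95% interval -0.68 to 0.97, limma, adjusted p = 0.81). Without Ad-Epas1 replicate 3 it was -0.23 (adjusted p = 0.49). The highest value fell on the array with the lowest macrophage transcripts, and the part of those transcripts in this value was not tested.

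Slc30a4 (ZnT4), which moves zinc out of the cytosol into vesicles, fell 1.56-fold. It stood at 9.35, 9.56 and 9.98 on Ad-Epas1 replicates 1, 2 and 3, against 10.21, 10.30 and 10.32 on Mock replicates 1, 2 and 3. Every Ad-Epas1 array was below every Mock array, and Ad-Epas1 replicate 3 was the nearest to them. The means were 9.63 ± 0.32 in Ad-Epas1 and 10.28 ± 0.06 in Mock (SD, n = 3 each), a log2 fold change of -0.65 (SE 0.16, limma, adjusted p = 0.035). Without Ad-Epas1 replicate 3 it was -0.82 (adjusted p = 0.0015). Leaving out any one of the remaining arrays ended the call: the value was -0.51 when Ad-Epas1 replicate 1 was left out, -0.61 for Ad-Epas1 replicate 2, -0.68 for Mock replicate 1, -0.64 for Mock replicate 2 and -0.62 for Mock replicate 3 (adjusted p from 0.074 to 0.13). It also ended with another quantile step between arrays (-0.62, adjusted p = 0.050).

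Of 9 further ZIP (Slc39a) genes, Slc39a2 rose, none fell and 8 did not pass, with a median of 0.15, where 16.3% of all genes passed and 6.57% rose. None of those with a negative difference had an unadjusted limma p under 0.05. Slc39a2 (ZIP2) was at 6.41, 6.34 and 6.47 on the Ad-Epas1 arrays, against 6.03, 6.10 and 6.01 on the Mock arrays (log2 fold change 0.36, SE 0.07, limma, adjusted p = 0.017). These levels are dim: 95% of 1394 olfactory and vomeronasal receptor genes, which these cells are not known to use, lay below 6.62. It was 0.33 with Ad-Epas1 replicate 3 left out. Its call ended without Ad-Epas1 replicate 1 (0.36, adjusted p = 0.051), Mock replicate 2 (0.39, adjusted p = 0.061) or Mock replicate 3 (0.34, adjusted p = 0.082). Slc39a4, the ZIP4 gene known for zinc uptake in the gut, had the widest difference. It stood at 8.70, 8.19 and 7.22 on the Ad-Epas1 arrays, against 7.37, 6.83 and 6.83 on the Mock arrays. Ad-Epas1 replicate 3 lay below Mock replicate 1, and the difference of 1.03 (SE 0.37, limma, adjusted p = 0.11) did not pass. Without Ad-Epas1 replicate 3, Slc39a4 rose by 1.44 (adjusted p = 0.0046), where 10.3% of all genes rose. The value on the array poor in macrophage transcripts was thus the lowest of its group, opposite to Slc39a10 and Slc39a14, and their part in it was not tested. Slc39a9, a ZIP of the Golgi, differed by 0.20 (adjusted p = 0.070) with no overlap between groups. The differences of Slc39a3 (0.04), Slc39a5 (0.18), Slc39a7 (0.03), Slc39a11 (-0.07), Slc39a12 (-0.12) and Slc39a13 (0.15) had adjusted p values from 0.24 to 0.82.

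Among 7 measured ZnT genes outside the set, Slc30a2 rose, none fell and 6 did not pass, with a median of 0.11, a count near the 16.3% of all genes that passed. Again no negative difference had an unadjusted limma p under 0.05. Slc30a2 (ZnT2), a vesicular exporter, stood at 7.39, 7.32 and 7.39 on the Ad-Epas1 arrays, against 7.03, 7.08 and 7.03 on the Mock arrays. The log2 fold change was 0.32 (SE 0.06, limma, adjusted p = 0.018), so it moved opposite to Slc30a4, and was 0.31 with Ad-Epas1 replicate 3 left out. The call ended without Ad-Epas1 replicate 1 (0.31, adjusted p = 0.055), Ad-Epas1 replicate 2 (0.34, adjusted p = 0.053), Mock replicate 2 (0.34, adjusted p = 0.071) or Mock replicate 3 (0.31, adjusted p = 0.084). Slc30a3, known for loading zinc into synaptic vesicles, differed by 0.26 (adjusted p = 0.086) and rose by 0.33 without Mock replicate 1 (adjusted p = 0.038). It was at 0.22 without Mock replicate 2 and without Mock replicate 3 (adjusted p = 0.25 in each fit). The ZnT genes of the secretory pathway had small differences: Slc30a5 by -0.14, Slc30a6 by -0.04 and Slc30a7 by 0.11, with adjusted p values from 0.29 to 0.74. Slc30a9 differed by 0.14 (adjusted p = 0.22) and Slc30a8, at 4.87, 4.81 and 4.76 on the Ad-Epas1 arrays and 4.88, 4.59 and 4.77 on the Mock arrays, by 0.07 (adjusted p = 0.64).

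Mt3 and Mt4, the metallothionein genes known from brain and from squamous epithelium, had low values. Mt3 stood at 7.13, 7.23 and 7.03 on the Ad-Epas1 arrays, against 6.92, 6.79 and 6.69 on the Mock arrays. Its difference of 0.33 (SE 0.09, limma) missed the threshold with an adjusted p of 0.0506 and passed without Ad-Epas1 replicate 3 (0.38, adjusted p = 0.027). Mt4 stood at 6.08, 5.87 and 5.58 in Ad-Epas1 and at 5.46, 5.72 and 5.47 in Mock, all below 6.62, with a difference of 0.29 (adjusted p = 0.21) and of 0.43 without Ad-Epas1 replicate 3 (adjusted p = 0.037). All 4 metallothionein genes thus had positive differences, from 0.20 to 0.33, as did 12988 of all 22180 genes. None of the 4 passed in the limma fit described here. Unadjusted limma p values were 0.017 for Mt1, 0.036 for Mt2, 0.0083 for Mt3 and 0.082 for Mt4. The share of all genes under 0.05 was not counted. Such p values were common among all genes, since the 0.036 of Mt2 went with an adjusted p of 0.12. They are therefore not read as a result about the metallothionein genes. Other settings over the same 6 arrays passed some of the 4 metallothionein genes. Array weights were lowest for Ad-Epas1 replicate 3 (0.293) and Mock replicate 1 (0.599). The highest were 2.472 for Ad-Epas1 replicate 2 and 2.382 for Mock replicate 2. Under these weights Mt1 (limma, adjusted p = 0.014), Mt2 (0.023) and Mt3 (0.0041) passed, where 7791 of all genes passed. This setting is thus not separate from the fits that leave out the arrays of lowest weight. The fit of genes above the median level passed Mt1 (0.0497), where 3558 genes passed. Median centring (0.036) and a trended robust prior (0.045) passed Mt3, where 3660 and 3752 genes passed.

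**Figure D3:**
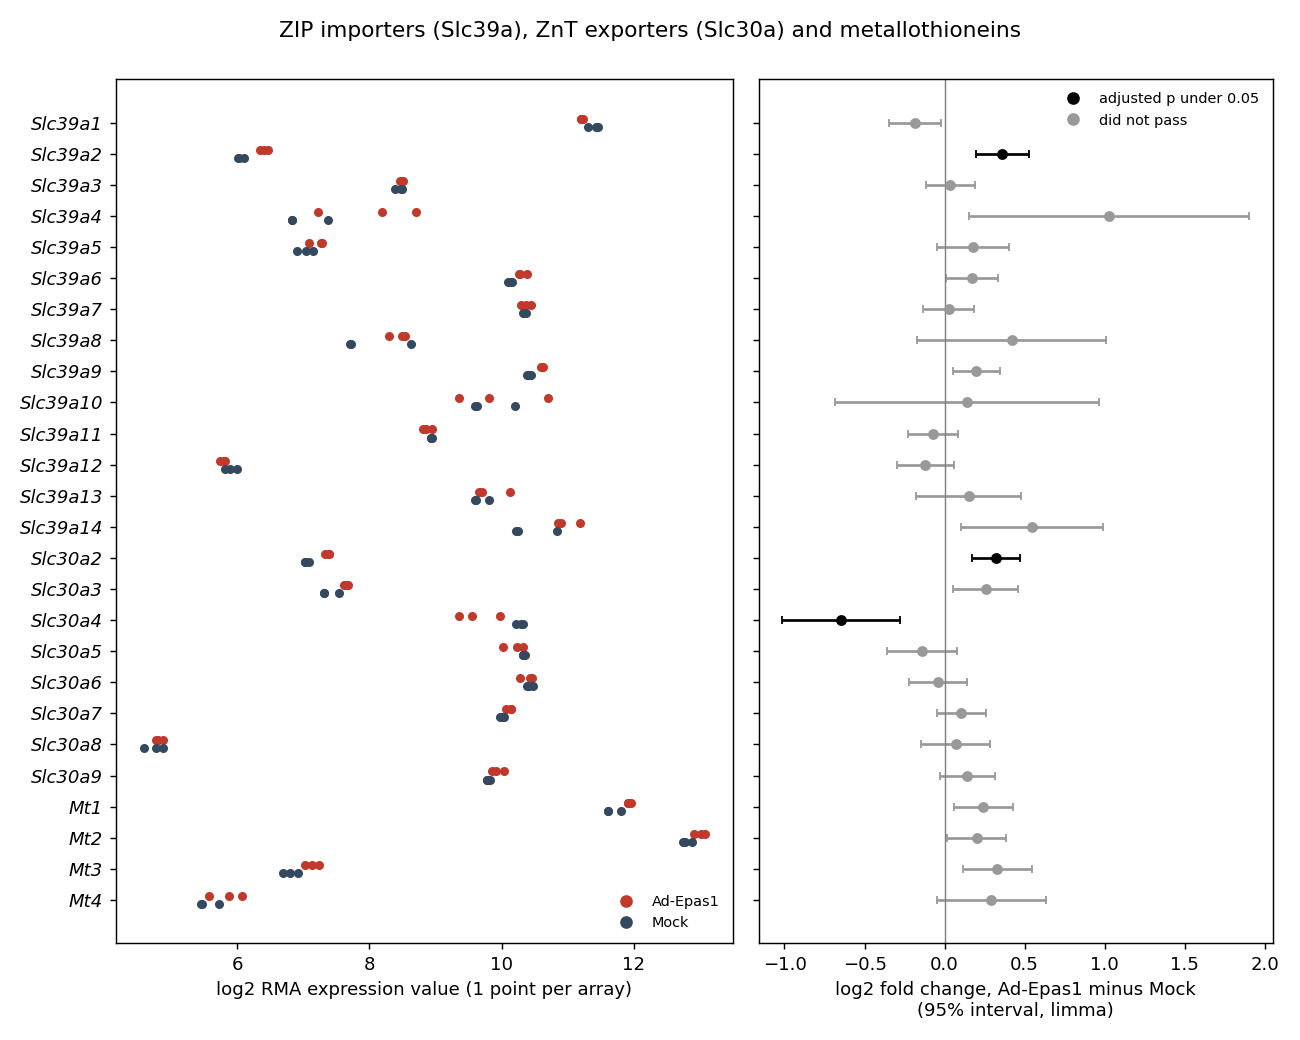
ZIP genes (Slc39a), ZnT genes (Slc30a) and metallothionein genes measured by a probe set of their own. The left panel gives the log2 expression value of each array, Ad-Epas1 above Mock in each row, and the right panel the log2 fold change (Ad-Epas1 minus Mock) with its 95% interval from limma, black where the adjusted p was under 0.05. Slc30a4 fell at -0.65, Slc39a2 and Slc30a2 rose at 0.36 and 0.32, and the remaining intervals are grey. Levels of different genes come from different probes and are not comparable.

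Genes that MTF1 has been reported to regulate in the mouse, outside the set, were followed as a list of 8. Of these, 4 rose, none fell and 4 did not pass, with a median of 0.28, where 6.57% of all genes rose. Among the 4 that did not pass, Selenoh had a negative difference with an unadjusted limma p under 0.05. The risen genes are also known to respond to other regulators. Gclc, the catalytic subunit gene of glutathione synthesis, rose by 1.74 (adjusted p = 0.0037), with 11.45, 11.64 and 10.92 on the Ad-Epas1 arrays against 9.85, 9.47 and 9.47 on the Mock arrays. Pgf, which encodes placental growth factor, stood at 10.33, 9.93 and 7.13 on the Ad-Epas1 arrays, against 5.30, 5.34 and 5.17 on the Mock arrays, where it was below 6.62. Its rise of 3.86 (SE 0.78, adjusted p = 0.020) was 4.86 without Ad-Epas1 replicate 3 and 3.26 without Ad-Epas1 replicate 1. Leaving out any one array other than Ad-Epas1 replicate 3 ended the call of Pgf (adjusted p from 0.053 to 0.082), with 3.46 for Ad-Epas1 replicate 2, 3.88 for Mock replicate 1, 3.90 for Mock replicate 2 and 3.81 for Mock replicate 3. Ndrg1, a stress-induced gene, rose by 1.42 (adjusted p = 7.8e-04). Csrp1, which encodes a LIM protein of the actin cytoskeleton, rose by 0.46 (SE 0.09, adjusted p = 0.020). Csrp1 lost its call without Ad-Epas1 replicate 1 (0.43), Ad-Epas1 replicate 2 (0.50), Mock replicate 2 (0.50) or Mock replicate 3 (0.49), with adjusted p values from 0.051 to 0.064. The selenoprotein genes Selenow (-0.03), Selenoh (-0.28) and the thioredoxin reductase gene Txnrd2 (0.11) did not pass. The iron exporter gene Slc40a1 stood at 7.52, 7.83 and 5.86 on the Ad-Epas1 arrays, against 7.02, 7.23 and 7.21 on the Mock arrays. It differed by -0.08 (adjusted p = 0.92) over all arrays and rose by 0.52 (adjusted p = 0.021) without Ad-Epas1 replicate 3. In that fit 5 genes of the list rose (Gclc by 1.95, Ndrg1 by 1.47 and Csrp1 by 0.43 among them) and Selenoh fell by 0.34 (adjusted p = 0.048).

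The proteases that ZIP8 and MTF1 are reported to control in mouse chondrocytes did not move together. Of 5 genes, Mmp3 rose, Adamts5 fell and 3 did not pass, where 6.57% of all genes rose and 9.75% fell. Mmp3, the stromelysin-1 gene, stood at 13.10, 13.13 and 13.07 on the Ad-Epas1 arrays, against 12.78, 12.57 and 12.54 on the Mock arrays (log2 fold change 0.47, SE 0.08, adjusted p = 0.014). Adamts5, which encodes an aggrecan-cleaving protease, stood at 10.51, 10.95 and 11.36 on the Ad-Epas1 arrays, against 12.18, 12.04 and 12.08 on the Mock arrays (-1.16, SE 0.20, adjusted p = 0.013). Both calls ended without Ad-Epas1 replicate 2, Mock replicate 2 or Mock replicate 3, with 0.45, 0.44 and 0.42 for Mmp3 (adjusted p from 0.058 to 0.070) and -1.16, -1.19 and -1.17 for Adamts5 (adjusted p from 0.054 to 0.058). With Ad-Epas1 replicate 3 left out, Mmp3 was at 0.48 and Adamts5 at -1.37. Mmp13, the collagenase-3 gene, stood at 13.05, 12.88 and 12.05 on the Ad-Epas1 arrays, against 12.53, 11.48 and 11.49 on the Mock arrays, with Mock replicate 1 above Ad-Epas1 replicate 3. Its difference of 0.83 (adjusted p = 0.17) was 1.13 without Ad-Epas1 replicate 3 (adjusted p = 0.044). Mmp9, a gelatinase gene, stood at 9.64, 8.88 and 7.64 on the Ad-Epas1 arrays, against 7.20, 7.21 and 7.25 on the Mock arrays (adjusted p = 0.070). Mmp12, the macrophage elastase gene, stood at 11.15, 10.97 and 9.12 on the Ad-Epas1 arrays, against 9.32, 9.30 and 9.29 on the Mock arrays (1.11, adjusted p = 0.18). Both were lowest of their group on Ad-Epas1 replicate 3, and without that array Mmp9 rose by 2.04 (adjusted p = 0.0012) and Mmp12 by 1.76 (adjusted p = 1.5e-04). In that fit 4 of the 5 genes rose and 1 fell, where 24.3% of all genes passed, 10.3% rising and 14% falling. The part of the macrophage transcripts in these values was not tested.

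**Figure D4:**
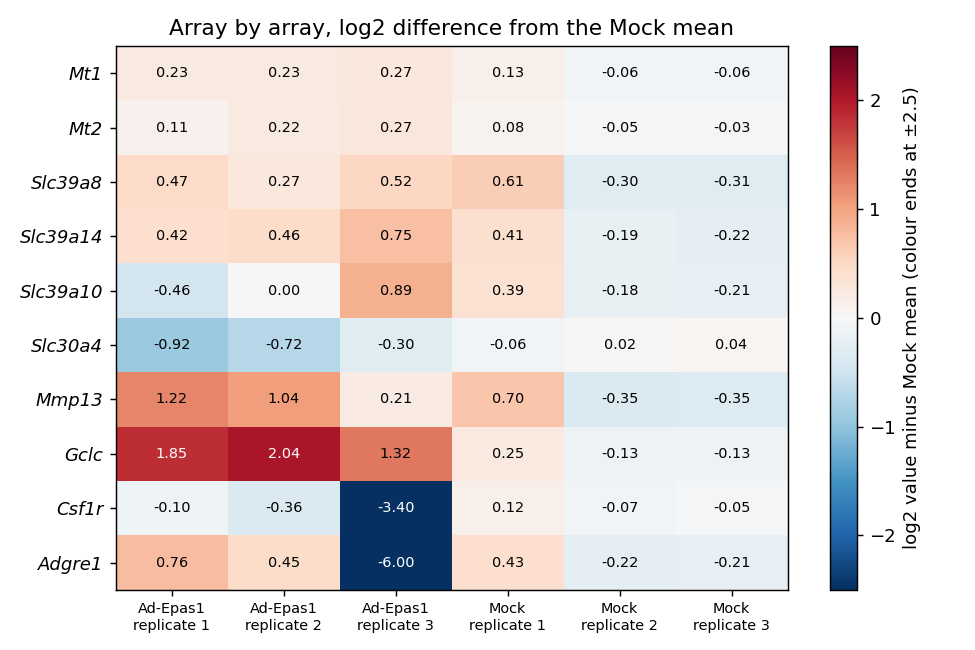
Log2 value minus the mean of the 3 Mock arrays, written in each cell, for 6 zinc genes, Mmp13, Gclc and the macrophage markers Csf1r and Adgre1 (rows) on the Ad-Epas1 arrays and then the Mock arrays (columns). Mock replicate 1 is positive for Slc39a8 (0.61), Slc39a14 (0.41) and Mmp13 (0.70), and Ad-Epas1 replicate 3 has -6.00 for Adgre1, -3.40 for Csf1r and 0.89 for Slc39a10.

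The array-by-array map of differences from the Mock mean shows that the zinc genes vary in more than a single way. Slc39a8 and Slc39a14 were at 0.27 to 0.75 on the 3 Ad-Epas1 arrays and at 0.61 and 0.41 on Mock replicate 1. Slc30a4 was at -0.92, -0.72 and -0.30 on Ad-Epas1 replicates 1, 2 and 3 and within 0.06 of the Mock mean on all Mock arrays, so it separated the groups without a departure of Mock replicate 1. The genes most like 4 of the zinc genes were found by Pearson's r over the 6 arrays among 10651 genes above the median level, leaving out provisional names. For Mt1 these were Ampd3 (r = 0.999), Tspan12 (0.996) and Acvr1b (0.996), and for Mtf1 they were Ppp1r2 (0.999), Lonrf1 (0.998) and Mbd1 (0.998). For Slc39a8 they were Mocs1 (0.990), Rffl (0.988) and Wbp2 (0.988), and for Slc39a14 they were Nupr1l (0.996), Cyp1b1 (0.992) and Fut4 (0.992). The 6 points share the 2 groups and, for Mt1, Slc39a8 and Slc39a14, the high Mock replicate 1, so r describes a common profile over these arrays. Mocs1, for example, stood at 9.53, 9.50 and 9.61 on the Ad-Epas1 arrays and at 9.64, 9.21 and 9.25 on the Mock arrays.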

How the data were processed

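Total RNA of 6 samples was hybridised to Affymetrix whole-transcript arrays. The authors deposited log2 expression values. The submitters' processing notes name RMA and Expression Console 1.3.1. RMA includes quantile normalization, which hides any change common to most genes. The sources used here do not name the genome build of the probe sets. The number of arrays limits the precision, and an exact permutation test of 3 against 3 cannot go below p = 0.1.

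Of 41345 probe sets, 23521 had 1 gene symbol, 1814 had several and 16010 had none. The Entrez identifiers of 23328 were in a RefSeq table of GRCm38.p6, which changed 0 symbols. The brightest probe set stood for a gene with several. No sample column was left unmapped (0), and no filter on level was used. The groups were compared with limma 3.58.1 in R 4.3.3 (lmFit, eBayes), two-sided, with Benjamini-Hochberg adjustment over 22180 genes and a threshold of 0.05. The fit was tested on simulated data with known changes.

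Samples were grouped by title. The zinc genes and lists were chosen with earlier results of these data known. All zinc genes are named, all further ZIP, ZnT and metallothionein genes, and called genes of the other lists; list genes that were not called and are named were chosen after their values were seen. Like genes are the 3 with the highest r among genes above the median mean level. Gene lists had no set test. Alternatives were a replicate block, leaving out arrays, 2 other scalings, a level filter, another variance prior, array weights and other uses of probe sets. Promoter windows came from RefSeq.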

Additional observations from a re-analysis of the deposited data

How the results depend on the processing

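The 6 arrays set most of the limits. Over all genes, 3620 passed, and 1181 to 5390 when 1 array was left out. The 9 zinc genes gave 2 calls, and 0 to 4 with 1 array left out. The further ZIP genes gave 1 (0 to 2), the further ZnT genes 1 (0 to 2), Mt3 and Mt4 0 (0 to 2), the MTF1 targets 4 (2 to 6), the copper genes 1 (0 to 6) and the chondrocyte proteases 2 (0 to 5). With Mock replicate 1 and Ad-Epas1 replicate 3 left out together, 6000 genes passed, with 5 zinc genes, 2 further ZIP, 2 further ZnT, 1 of Mt3 and Mt4, 7 copper genes and 5 proteases. Array weights were lowest for the same arrays. They gave 7791 genes, 6 zinc genes, 3 ZIP, 3 ZnT, 1 of Mt3 and Mt4, 6 copper genes and 5 proteases. Another quantile step gave 1 zinc gene, 2 ZnT and 0 copper genes; median centring gave 1 of Mt3 and Mt4 and 2 copper genes; the trended robust prior gave 1 of Mt3 and Mt4; and genes above the median level gave 0 ZnT genes, since Slc30a2 was then not among the genes tested. Slc39a10 changed sign without Ad-Epas1 replicate 3 (-0.23) and without both arrays (-0.04), and ranged from -0.23 to 0.44 with 1 array left out. The other 8 zinc genes kept their sign in all 15 alternatives.

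The labels name neither animals nor cultures, so the numbers were not taken to pair the samples. Deviations from the group mean of same-numbered arrays had r of 0.34, -0.19 and 0.21 for replicates 1, 2 and 3. For differently numbered arrays r ran from -0.33 to 0.27. Deviations of 3 arrays from their own mean depend on each other, so these r values cannot tell whether the samples pair. With the replicate block 3108 genes passed, 2 zinc genes, 0 further ZnT genes and 2 copper genes. Among the genes named, Slc39a2 (adjusted p = 0.051), Slc30a2 (0.055) and Ccs (0.053) then missed the threshold, and Slc39a4 (0.041), Atp7b (0.048) and Steap3 (0.037) passed.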

Other observations

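Metallothioneins bind copper as well as zinc, and the genes of copper handling were described in the same way. Of 9 measured copper genes, Ccs fell, none rose and 8 did not pass, with a median of 0.21, where 16.3% of all genes passed. Among those 8, Atp7b (positive) and Steap3 (negative) had an unadjusted limma p under 0.05. Ccs, which encodes the copper chaperone of superoxide dismutase, stood at 7.93, 8.08 and 8.39 on the Ad-Epas1 arrays, against 8.60, 8.63 and 8.61 on the Mock arrays (log2 fold change -0.48, SE 0.12, limma, adjusted p = 0.040). Leaving out any one array other than Ad-Epas1 replicate 3 ended the call (adjusted p from 0.087 to 0.13), with -0.38 for Ad-Epas1 replicate 1, -0.45 for Ad-Epas1 replicate 2, -0.49 for Mock replicate 1, -0.47 for Mock replicate 2 and -0.48 for Mock replicate 3. Without Ad-Epas1 replicate 3 Ccs was at -0.61 and was 1 of 2 genes of the list that fell, and 4 rose, where 24.3% of all genes passed, 10.3% rising and 14% falling. The 4 risen genes were the copper-exporting ATPase genes Atp7a (0.43, adjusted p = 0.013) and Atp7b (0.77, adjusted p = 0.0082), the copper importer gene Slc31a1 (0.58, adjusted p = 0.015) and Slc31a2 (0.61, adjusted p = 0.033), and the second fallen gene was the metalloreductase gene Steap3 (-1.49, adjusted p = 0.0023). Atp7a, Atp7b, Slc31a1, Slc31a2 and the copper chaperone genes Atox1 and Cox17 had their lowest Ad-Epas1 value on the array poor in macrophage transcripts, at 9.77, 7.26, 10.35, 10.01, 10.02 and 7.42. The remaining 3 genes had their highest Ad-Epas1 value there: Ccs at 8.39, Steap3 at 8.87 and the metalloreductase gene Steap4 at 11.63. Steap4 had the largest positive difference of the list (1.25, limma, adjusted p = 0.18), with 9.23, 10.06 and 11.63 on the Ad-Epas1 arrays and 9.50, 8.75 and 8.93 on the Mock arrays. The part of the macrophage transcripts in these values was not tested.

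Of 3 measured genes of other zinc handling, Trpm7, Tmem163 and Cbwd1, none passed limma's test (differences of 0.01, 0.10 and -0.07), and 0 had an unadjusted p under 0.05.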
